A study of Arabidopsis thaliana with 6 samples.

Results

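The genes examined here encode pentatricopeptide repeat (PPR) proteins of Arabidopsis thaliana, the thale cress. A gene was a member if it was nuclear, had a probe set assigned to no other gene, and carried the word pentatricopeptide or the letters PPR in its annotation. The annotation used here gives symbols and synonyms and no free-text description, so the words were sought in the symbols and synonyms. They were found for 13 nuclear loci, of which 2 had a single-gene probe set, PPR336 (AT1G61870) and PPR596 (AT1G80270), both on chromosome 1. This is 2 of 13217 nuclear genes measured by a single-gene probe set, and neither gene had a second probe set. Because so few members carry the words, 21 further PPR genes were taken from a list of 68 loci drawn up from general knowledge of the family. They were not chosen by the words of the rule, and the combined set is called the 23 PPR genes. Of the 21, 12 have a symbol in the annotation used here, and 9 have only a locus identifier and are given with no name or role.

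PPR proteins are made of short helical repeats that bind RNA in a sequence-specific way. They are encoded in the nucleus and imported into plastids or mitochondria, where they edit, splice, process or stabilise RNAs of the organelle genomes and help their translation. Plants have far more of these genes than animals or fungi, and loss of a single one often affects a single organelle transcript.

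Total RNA was measured on 6 Affymetrix ATH1 arrays, which carry sets of short probes for each transcript, in 3 groups of 2 arrays, all labelled as 3 weeks old. Col-0, the wild type, was kept in hydrocarbon-free air as the control or was given the gaseous hormone ethylene at 10 ppm, and the last group was the line amiR-ETP1/2, which carries an artificial microRNA against the F-box protein genes ETP1 and ETP2 and has Col-0 as its parent strain. The array titles give the exposure as 24 h, whereas the characteristics of the samples and the design text give 4 h. No gas treatment is labelled for the amiR-ETP1/2 arrays, the organ is not labelled, and the replicates are described as biological.

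Values below are log2 levels of probe sets, taken as log2 from their range of 2.99 to 13.98. The test across all 22746 probe sets was that of limma, and a gene was called when its p, adjusted by Benjamini-Hochberg, was under 0.05. The tool fits a linear model and moderates the spread of each probe set, and SE is the moderated standard error with n = 2 arrays per group. The medians of the arrays were 4.39 to 4.46. The ETP2 probe set had levels of 4.06 and 4.14 in air and 4.23 and 4.47 in the arrays labelled amiR-ETP1/2 (difference 0.25, SE 0.14, limma adjusted p = 0.448). The knockdown was therefore not seen in ETP2 at this low signal. The other target, ETP1, was not examined here. The difference between the 3' end and the middle of the actin control, a measure of RNA integrity, was 0.32 and 0.83 in air, 2.17 and 2.02 with ethylene, and 0.89 on both amiR-ETP1/2 arrays. The difference between the 3' and the 5' end of the GAPDH control did not set the ethylene arrays apart, with 0.77 and 1.76 on the air arrays, 1.02 and 1.76 under ethylene, and 0.52 and 0.66 in amiR-ETP1/2. In the 2 of 4 leaf mesophyll markers that were measured the summed linear level was 13724 to 15359 in air, 1007 to 1035 with ethylene and 12930 to 14225 in amiR-ETP1/2. In the 3 of 4 root markers that were measured it was 480.1 to 685 in air, 58.8 to 78.5 with ethylene and 710 to 797 in amiR-ETP1/2. Of these markers PYK10, a root beta-glucosidase, fell by 4.12 with ethylene (adjusted p = 1.26e-05), whereas the root hair expansins EXPA7 (-0.59, adjusted p = 0.382) and EXPA18 (0.35, adjusted p = 0.133) were not called. The part of RNA integrity and of organ make-up in the differences below was not tested, and in such bulk RNA fewer cells of a type and less RNA per cell cannot be told apart.

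PPR596 encodes a mitochondrial PPR protein that acts on the extent of editing of a mitochondrial ribosomal protein transcript. Its log2 levels were 5.49 and 5.25 on the air arrays, 3.75 and 3.92 under ethylene, and 5.67 and 5.18 in amiR-ETP1/2. Both ethylene arrays lay below the other 4 arrays, and the air and amiR-ETP1/2 arrays overlapped. PPR596 fell by 1.54 on the log2 scale with ethylene (SE 0.19, limma adjusted p = 0.000533), a 2.91-fold lower level. The share of all probe sets called lower in this comparison was 17.1%, and the share called in either direction was 36%. The difference between amiR-ETP1/2 and air was 0.05 (SE 0.19, adjusted p = 0.938), and amiR-ETP1/2 was higher than ethylene by 1.59 (SE 0.19, adjusted p = 0.000433). On the ethylene arrays the signal of PPR596 lay at percentiles 21.8 and 31.8 of all probe sets, against 67.6 and 66 in air. The level with ethylene was therefore near the bottom of the measured range, where the ratio of transcript numbers is not well determined. The fall with ethylene was called under each of the 14 other settings that could change it, with adjusted p of at most 0.011.

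PPR336 encodes a mitochondrial PPR protein that is associated with the mitochondrial ribosome. Its log2 levels were 4.64 and 4.71 on the air arrays, 4.68 and 4.84 under ethylene, and 5.53 and 5.66 in the arrays labelled amiR-ETP1/2. Both amiR-ETP1/2 arrays lay above the other 4 arrays, and the air and ethylene arrays overlapped. PPR336 rose by 0.92 in amiR-ETP1/2 against air (SE 0.13, limma adjusted p = 0.0379), where 0.347% of all probe sets were called higher and 0.62% were called in either direction. Against ethylene it was higher by 0.83 (SE 0.13, adjusted p = 0.00154), and the difference between ethylene and air was 0.09 (SE 0.13, adjusted p = 0.685). The signal moved from percentiles 54.5 and 56.7 of all probe sets in air to 69.8 and 69.3 in amiR-ETP1/2.

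The call of PPR336 against air was close to the threshold, while its size hardly moved. Leaving out any 1 array ended it, with an adjusted p of 0.102 and 0.14 for the fits lacking the first and the second air array, 0.154 for those lacking the first or the second ethylene array, and 0.0519 and 0.0717 for those lacking the first and the second amiR-ETP1/2 array. The difference stayed between 0.86 and 0.98 over these fits, in which a lone array is taken to vary like the other groups. A fit of only the 4 arrays compared did not call it either (limma adjusted p = 0.154). That fit equals those lacking an ethylene array, as a lone array adds no spread, so it is no separate check. With the replicate number as a block the call was also lost (adjusted p = 0.0811). The higher level against ethylene was called in each of the 14 other settings that could change it, with adjusted p of at most 0.0189.

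**Figure D1:**
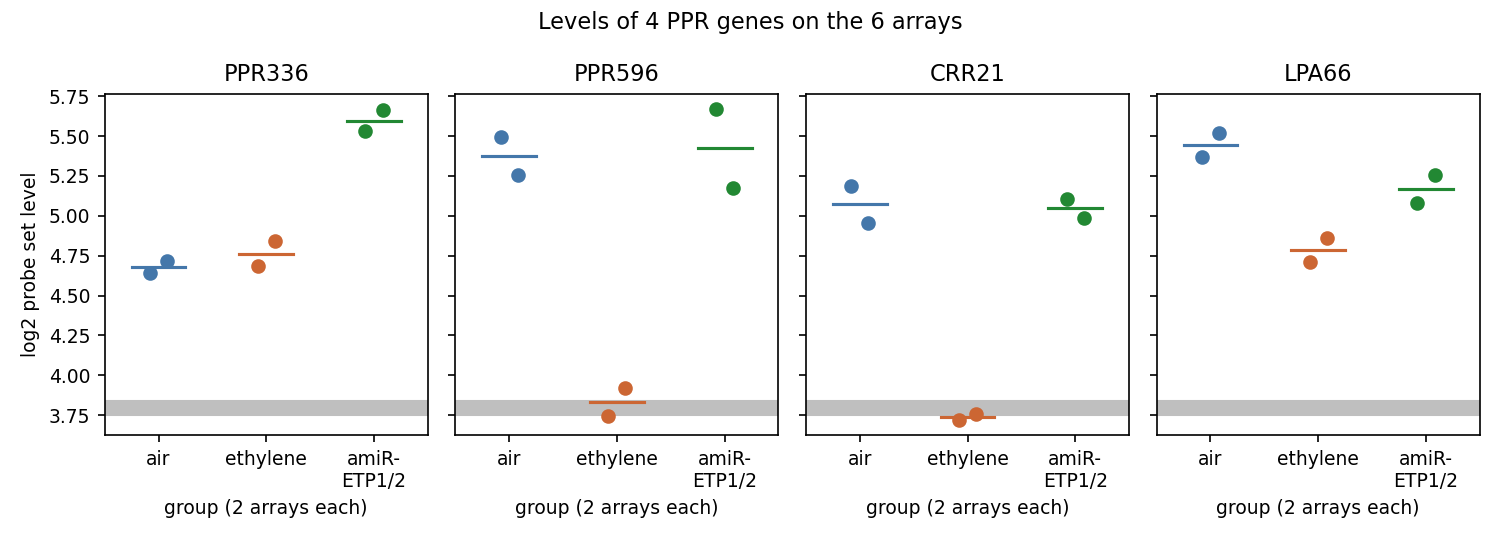
Log2 probe set levels of PPR336, PPR596, CRR21 and LPA66 on the 6 arrays, by group, with 1 point per array, a line at the mean of the 2 arrays and a grey band over the 25th percentiles of the 6 arrays. PPR336 is highest on the amiR-ETP1/2 arrays (5.53 and 5.66), whereas PPR596 (3.75 and 3.92) and CRR21 (3.72 and 3.76) lie near the grey band on the ethylene arrays.

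The genes beside the members in chromosome order were read for comparison. Of the 5 measured genes on each side of PPR336, 0 of 10 were called in amiR-ETP1/2 against air by limma, beside 0.62% of all probe sets. Their differences ran from -0.35 to 0.94 with a median of 0.06. The highest was that of AT1G61890, the next measured gene, at 0.94 (adjusted p = 0.0714). Around PPR596, 3 of 10 neighbours were called higher and 0 lower with ethylene, with a median difference of 0.06, beside 18.9% and 17.1% of all probe sets. The counts with ethylene around PPR336 were the same, 3 of 10 higher and 0 lower. The chromosome 1 median difference was 0.00 with ethylene and -0.02 in amiR-ETP1/2. With the chromosome medians removed from every array, the difference of PPR336 in amiR-ETP1/2 was 0.94 (adjusted p = 0.0259).

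In the ethylene comparison, 6 of the 23 PPR genes (26.1%) were called lower and 0 were called higher, beside 17.1% and 18.9% of all probe sets. Without adjustment, 8 had a lower and 0 a higher level at p under 0.05 in limma. The differences of the 23 ran from -1.54 to 0.09 with a median of -0.21, while the median over all probe sets was 0.00. The genes that fell were PPR596, CRR21, LPA66 and the loci AT5G42310, AT3G22150 and AT2G15690. In each of them the higher ethylene array was under the lower air array, which a call with 2 arrays per group almost requires. That order held for 32.9% of all probe sets, called or not, so this share is no comparison for genes picked by their call. Since 21 of the 23 came from a list drawn up by hand, the counts describe these genes and not the family.

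CRR21 (AT5G55740, chromosome 5) is required to edit the plastid RNA of ndhD, a subunit of the chloroplast NADH dehydrogenase-like complex. Its levels were 5.19 and 4.96 on the air arrays, 3.72 and 3.76 under ethylene, and 5.11 and 4.99 in amiR-ETP1/2. Only the ethylene arrays stood apart, and CRR21 fell by 1.33 with ethylene (SE 0.13, limma adjusted p = 0.000178), to percentiles 20 and 22.7 of the arrays, where, as for PPR596, the ratio is not well determined. In amiR-ETP1/2 the difference from air was -0.02 (adjusted p = 0.957).

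LPA66 (AT5G48910, chromosome 5) is required to edit the plastid RNA of psbF, which encodes a subunit of cytochrome b559 in photosystem II. It had levels of 5.37 and 5.52 on the air arrays, 4.71 and 4.86 under ethylene, and 5.08 and 5.26 in amiR-ETP1/2. The groups did not overlap, with air highest and ethylene lowest. LPA66 fell by 0.66 with ethylene (SE 0.14, adjusted p = 0.00699), and its difference in amiR-ETP1/2 was -0.27 (SE 0.14, adjusted p = 0.403).

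The other 7 named plastid genes were not called in any of the 3 contrasts. They are the editing factors CRR22 and CRR28, which serve several plastid transcripts, OTP81 (rps12), OTP84 (ndhF among others), OTP85 (ndhD) and OTP86 (rps14), and OTP70, which acts in the splicing of rpoC1. Their differences between ethylene and air were -0.12 for CRR22, -0.29 for CRR28, -0.10 for OTP81, -0.21 for OTP84, -0.06 for OTP85, 0.00 for OTP86 and -0.27 for OTP70. So 2 of 9 named plastid genes (22.2%) fell and 7 were not called, with a median of -0.21, beside 17.1% of all probe sets called lower.

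Among the 4 named mitochondrial genes, PPR596 fell with ethylene, beside 17.1% of all probe sets called lower. The other 3, PPR336, OTP87 and OTP43, were not called. OTP87, an editing factor of nad7 and other mitochondrial RNAs, had levels of 3.75 and 3.86 on the air arrays and 3.74 and 3.89 under ethylene. OTP43, required for the splicing of nad1, had levels of 3.88 and 4.44 on the air arrays and 4.36 and 4.08 under ethylene. In both genes the air and ethylene arrays overlapped, with differences of 0.01 and 0.06. LOJ, a PPR gene known for its expression at the junctions of lateral organs, was not assigned to an organelle here and is not among these 4. It had levels between 3.33 and 3.48 on all 6 arrays, at percentiles 2.3 to 7.4, so a change would hardly be detectable there.

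Of the 9 loci without a symbol, 3 (33.3%) fell with ethylene, beside 17.1% of all probe sets. AT5G42310 had levels of 7.42 and 7.36 on the air arrays, 5.996 and 5.94 under ethylene, and 6.92 and 6.92 in amiR-ETP1/2. The 3 groups were clear of each other, and the gene fell by 1.42 with ethylene (SE 0.12, adjusted p = 6.5e-05), while the difference in amiR-ETP1/2 of -0.47 was not called (adjusted p = 0.141).

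AT3G22150 had levels of 5.03 and 4.92 on the air arrays, 3.68 and 3.87 under ethylene, and 6.09 and 5.36 in amiR-ETP1/2. It fell by 1.20 with ethylene (SE 0.23, adjusted p = 0.00519), to percentiles 17.8 and 29.3 of the arrays, so the size of this fall is not well determined either. In amiR-ETP1/2 both arrays lay above both air arrays, by 0.75 on average (SE 0.23, adjusted p = 0.197). Without amiR-ETP1/2 array 2 this difference was 1.12 and was called (adjusted p = 0.0379), and without amiR-ETP1/2 array 1 it was 0.39 (adjusted p = 0.382). The other 4 fits that leave out an array did not call it.

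AT2G15690 had levels of 6.29 and 6.22 on the air arrays and 5.58 and 5.57 under ethylene, and fell by 0.68 (SE 0.16, adjusted p = 0.0136). Its call was lost without air array 1 (-0.65), without ethylene array 1 (-0.68) and without ethylene array 2 (-0.67), while the difference hardly moved. The 6 loci not called were AT2G18940 (-0.39, adjusted p = 0.0557), AT4G37380 (-0.37), AT3G22690 (-0.34), AT4G11690 (-0.17), AT3G03580 (-0.12) and AT4G32430 (0.06). Without ethylene array 1 the count of PPR genes called lower was 3 of 23, since AT3G22150 (-1.10, adjusted p = 0.0553), LPA66 (-0.58, adjusted p = 0.0596) and AT2G15690 (-0.68, adjusted p = 0.0779) missed the threshold. In the same fit the number called over all probe sets went from 8185 to 6243.

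**Figure D2:**
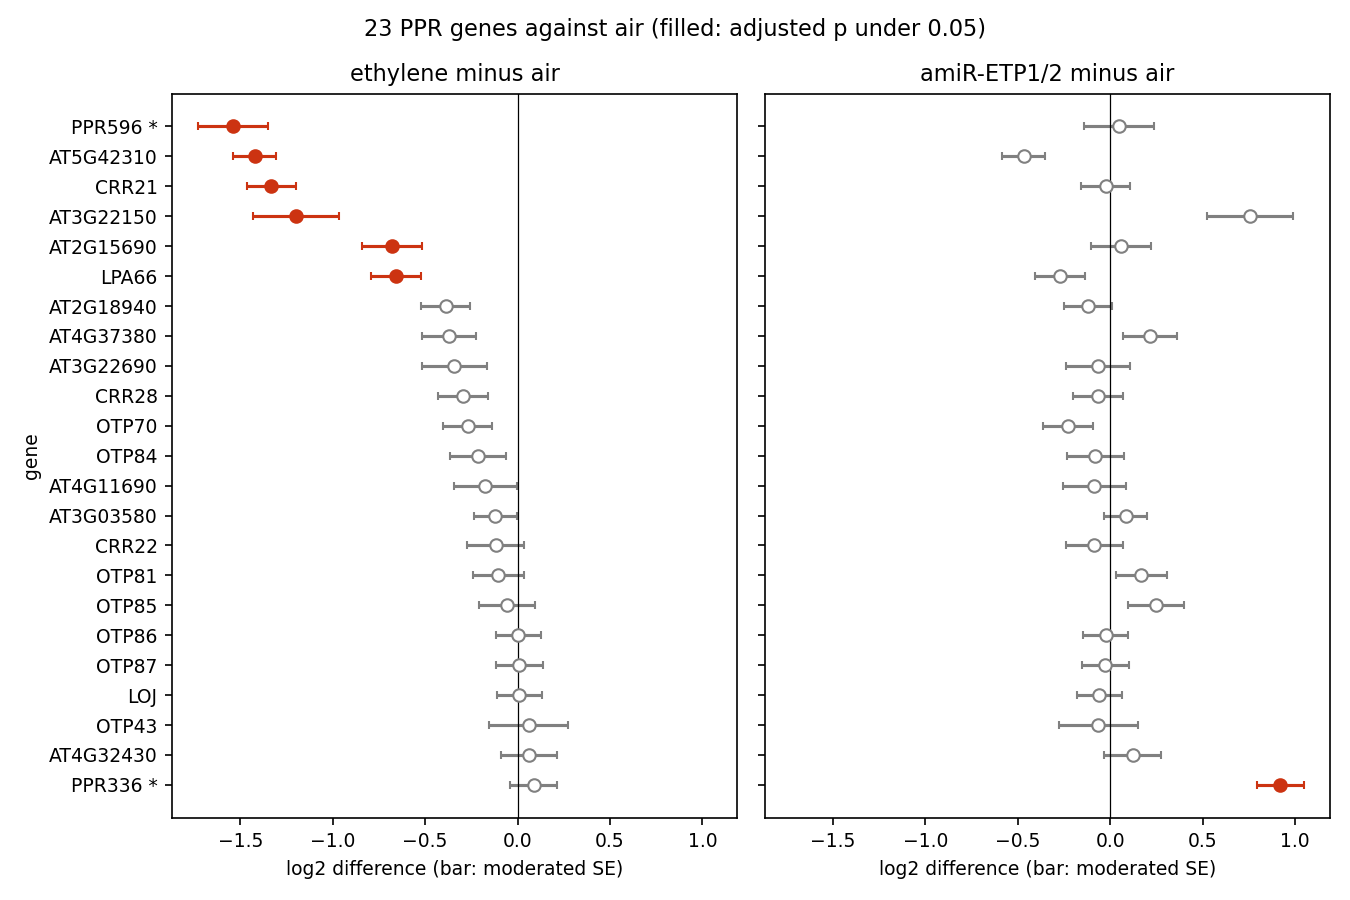
Log2 differences of the 23 PPR genes, ethylene minus air on the left and amiR-ETP1/2 minus air on the right, with bars of 1 moderated SE, filled points for adjusted p under 0.05 and asterisks for the 2 members chosen by the words of the annotation. With ethylene 6 genes are called, all lower, and in amiR-ETP1/2 only PPR336 is called. The panels share the air arrays.

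The genes called with ethylene were those of higher mean signal over the 6 arrays. Of the 23 PPR genes 8 had a mean over the 6 arrays above the median of all probe sets, and these held all 6 genes called lower with ethylene (75% of the 8). Over all probe sets above that median, 30.7% were called lower and 31.8% higher. The other 15 had 0 calls between ethylene and air by limma and 1 unadjusted p under 0.05. In that range 3.53% of probe sets were called lower and 5.93% higher, so most PPR genes lay where few probe sets were called. The mean that sorts the genes includes the ethylene arrays, so it is not independent of the differences counted. PPR596, CRR21 and AT3G22150 had ethylene means of 3.83, 3.74 and 3.78, below that median of 4.51. They passed it only through their air and amiR-ETP1/2 arrays. The part of the signal in the calls was not tested. Of the 8, PPR336 and AT2G18940 were not called lower. The 5 highest means among the 23 belonged to AT5G42310 (6.76), AT2G15690 (6.05), LPA66 (5.13), PPR336 (5.01) and PPR596 (4.88), and such signals depend on the probes and do not rank transcript numbers.

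In amiR-ETP1/2 against air, 1 of 23 PPR genes was called higher and 0 lower by limma, beside 0.347% and 0.273% of all probe sets. Without adjustment 2 were higher and 1 lower at p under 0.05. The differences ran from -0.47 to 0.92 with a median of -0.03, the same to 2 decimals as the median over all probe sets of -0.03. By role, PPR336 was the 1 gene called among the 4 mitochondrial genes, and none of the 9 named plastid genes was called (median -0.07).

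Between amiR-ETP1/2 and ethylene, 7 of 23 (30.4%) were called higher in amiR-ETP1/2 and 0 lower, beside 18.2% and 20.2% of all probe sets, or 38.4% in either direction. Without adjustment 8 were higher and 0 lower. Besides both members these were CRR21 (1.31, adjusted p = 0.00019), AT3G22150 (1.95, adjusted p = 0.000411), AT5G42310 (0.95, adjusted p = 0.000481), AT2G15690 (0.74, adjusted p = 0.00878) and AT4G37380 (0.58, adjusted p = 0.016). The calls of AT2G15690 and AT4G37380 were lost in some of the fits that leave out 1 array. Over these fits their differences ran from 0.52 to 0.95 and from 0.46 to 0.71. This contrast shares its ethylene arrays with the comparison of ethylene with air.

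The array gives a signal for each probe set and measures neither editing nor splicing. The organelle RNAs that the named genes serve were therefore read only for this signal. How closely it follows the amount of organelle RNA was not tested. The transcripts were chosen from the known targets after the annotation was seen, and 7 of 9 had a single-gene probe set. The plastid RNA of ndhD had levels of 5.30 and 4.91 on the air arrays, 7.23 and 7.84 under ethylene, and 4.99 and 4.49 in amiR-ETP1/2. It rose by 2.43 with ethylene (SE 0.26, limma adjusted p = 0.000253), while CRR21 fell and OTP85 was not called.

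Other plastid targets were also higher with ethylene, rpoC1 by 1.94 (limma adjusted p = 0.00199), rps14 by 0.86 (adjusted p = 0.00183) and ndhF by 0.77 (adjusted p = 0.00269). In air rps14 (3.57 and 3.68) and ndhF (3.57 and 3.77) were near the bottom of the measured range, so the size of their rise is not well determined. The RNA of psbF had levels of 10.23 and 9.25 on the air arrays and 10.62 and 10.75 under ethylene, a difference of 0.95 that was not called (adjusted p = 0.0541). The median over 69 probe sets of plastid genes moved the same way, from 6.46 and 6.01 in air to 7.23 and 7.46 with ethylene, against 6.44 and 5.80 in amiR-ETP1/2. None of the 7 probe sets of the mitochondrial nad1 or the 1 of nad7 was called with ethylene, with differences from -0.25 to 0.26. Their means lay at percentiles 7.1 to 48.5 of all probe sets, a range where few probe sets were called. The median of 17 probe sets of nad and cox genes was 4.00 and 4.13 on the air arrays, 4.26 and 4.29 under ethylene, and 3.90 and 3.97 in amiR-ETP1/2. Whether these RNA levels and the PPR genes are linked was not tested.

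**Figure D3:**
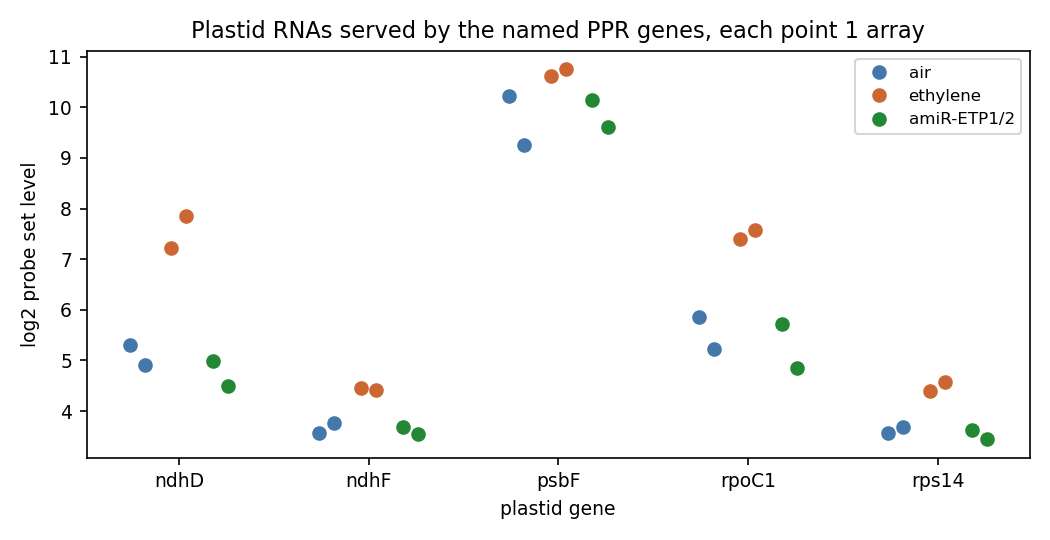
Log2 probe set levels of 5 plastid RNAs that named PPR genes edit or splice, with 1 point per array and colours for the 3 groups. For ndhD, ndhF, rpoC1 and rps14 both ethylene arrays lie above all other arrays and the difference from air is called, whereas for psbF it is not.

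Other nuclear factors of organelle RNA were counted from lists that hold no PPR gene. Of 10 measured, 4 (40%) were called lower with ethylene and 0 higher, with a median of -0.29, beside 17.1% and 18.9% of all probe sets. Among 6 splicing factors, CFM3A and CFM3B, which carry the CRM domain of group II intron splicing, fell by 0.998 (SE 0.23, adjusted p = 0.0114) and by 0.90 (SE 0.16, adjusted p = 0.00337), and CAF1 had a difference of -0.20 (adjusted p = 0.315). AT2G37220 fell by 2.06 (adjusted p = 0.00011) and AT1G32580 fell by 0.40 (adjusted p = 0.0367), and both carry no symbol in the annotation used here. Without adjustment the 10 had 0 higher levels at p under 0.05. In amiR-ETP1/2 0 of the 10 were called against air by limma, beside 0.62% of all probe sets. Without adjustment 1 had a higher and 0 a lower level.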

How the data were processed

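The deposited table holds 1 log2 level per probe set and array on Affymetrix ATH1 arrays. The log2 scale was read from the values. Per the submitters' processing notes limma was used by the authors, with no version, and the sources used here do not say how background was corrected, probes were summarised and arrays were normalized. The number of arrays limits the precision.

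From the deposited log2 values, 7 control probe sets were left out and 22746 were fitted with 1 mean per group over all 6 arrays (limma 3.58.1, R version 4.3.3, 3 residual and 4.15 prior degrees of freedom), with no filter or further scaling and Benjamini-Hochberg adjustment within each of 3 contrasts. All tests were two-sided. The p-values rest on the spread between the 2 arrays of a group, pooled over the 3 groups and moderated toward that of all probe sets. The fit was tested on simulated data. Genes were named from the platform annotation, in which 13513 probe sets had 1 gene and 503 had several, through TAIR10.1 RefSeq names, and no coordinates are printed.

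The members, lists and tests were chosen with earlier results of these data known. The rule asked for descriptions, which the tables used here do not carry, so symbols and synonyms were searched. Named genes were called genes whose arrays did not overlap, up to 10 in each direction, the 5 with the highest means, all measured genes of the PPR lists and up to 4 of each other list. A list of mTERF factors, defined by descriptions, was not analysed here. Subgroups by protein sequence were not analysed here.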

Additional observations from a re-analysis of the deposited data

How the results depend on the processing

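PPR596 stayed called lower with ethylene, and both members stayed called higher in amiR-ETP1/2 than with ethylene, under the 14 settings that could change them. The count of members called in amiR-ETP1/2 against air, 1, was 0 with a replicate block and 0 with only the 4 arrays compared, and 0 to 0 when 1 array was left out. The count among the 23 PPR genes was likewise 0 in both of these fits and 0 to 1 when 1 array was left out. With ethylene the count of 6 was 3 to 6 when 1 array was left out, and the median of -0.21 was -0.33 to -0.18. That median was -0.39 without the lowest 40% of probe sets (13 genes left) and -0.94 for the 8 genes above the median mean. The median of 0.27 between amiR-ETP1/2 and ethylene was 0.58 and 0.89 in these sets, which leave out genes of weaker mean signal. Both sets are chosen by a mean that includes the ethylene arrays, so their medians depend in part on that choice. AT2G18940 was called lower with ethylene after quantile normalization (-0.43), median centring (-0.38) and removal of the chromosome medians (-0.40). The numbers of probe sets called in amiR-ETP1/2 against air were 141 in the main setting, 42 with the replicate block, 9 with 4 arrays and 259 after quantile normalization. Arrays with the same number were not paired, as their deviations correlated at -0.14 for air and ethylene, -0.17 for air and amiR-ETP1/2 and 0.07 for ethylene and amiR-ETP1/2. Choosing the lowest-mean probe set, leaving out probe sets that can bind several transcripts or searching only the longer word gave the same members and values. Leaving out an array of the group not compared equals the fit of the 4 arrays compared, so those of the 14 settings are not separate checks. The fit of nuclear single-gene probe sets alone was chosen after seeing the data.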
